A study of Oryza sativa with 12 samples.

Results

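The genes described here are 6 components of phosphate starvation signalling in rice. They are SPX1 (Os06g0603600), SPX2 (Os02g0202200), SPX3 (Os10g0392600), PHR2 (Os07g0438800), PHO2 (Os05g0557700) and SQD2 (Os07g0100300). They were chosen by identifier, as every locus of the authors' deposited expression table whose gene entry contains 1 of these identifiers. This gave 7 loci among the 37672 of the table, because PHO2 is listed in a pair of loci. Total RNA from the aerial parts of cultivar Nipponbare was sequenced in 12 samples, 3 biological replicates in each of 4 groups. The groups were knockout line b and knockout line a of OsC3'H1 (T3 plants sampled at 12 days), wild type at 12 days, and wild type at 5 days. OsC3'H1 encodes the 3-hydroxylase of p-coumaroyl esters in lignin synthesis.

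Per the labels, all plants were started in sterile boxes on diluted Murashige and Skoog agar. Wild-type control plants were moved on day 7 to a container of hypotonic solution prepared with tap water, and no such move is named for the knockouts. The 5-day plants were sampled before that day. Genotype and growth solution therefore cannot be told apart between a knockout line and 12-day wild type. Age and growth solution cannot be told apart between the wild-type groups. Between a knockout line and 5-day wild type, genotype and age cannot be told apart, because the knockouts were sampled at 12 days. The phosphate content of the tap-water solution is not given in the sources used here. The titles and the source names of the knockout samples give the line letters opposite ways. The titles were followed, so every value given for line b belongs to line a, and the reverse, if the source names are right.

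Plants sense phosphate through proteins with an SPX domain, which bind inositol pyrophosphates when phosphate is ample and then hold transcription factors of the PHR family away from DNA. When phosphate runs short the PHR factors are released and switch on uptake, recycling and lipid genes, among them several SPX genes, which thereby act as a feedback brake. PHO2, a ubiquitin-conjugating enzyme, promotes the breakdown of phosphate transporters and is itself repressed by the microRNA miR399 under starvation. SQD2 completes the synthesis of the sulfolipid sulfoquinovosyldiacylglycerol, a thylakoid lipid that can stand in for phospholipids.

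The table gives levels as FPKM, which scales fragment counts to transcript length and to the number of mapped fragments, with 1 value per group. Depth per library is unknown, and no spread between replicates can be given. A locus was called where Cuffdiff's deposited q was under 0.05. Where an error is given with a log2 ratio, it is the one that the deposited test statistic implies. The 95% intervals were built from such errors. The targeted gene OsC3'H1 was listed at 12.8 FPKM in line b, 10.7 in line a, 53.1 in 12-day wild type and 65.7 in 5-day wild type, and was called lower in both lines against both wild types. The summed level of 4 leaf markers (RBCS, RCA, PETE, PSBW) was 3161 FPKM in line b, 3667 in line a, 40762 in 12-day wild type and 30434 in 5-day wild type. The summed level of 3 root markers (LSI1, LSI2, RCc3) was 9.47 FPKM in line b, 7.26 in line a, 4.68 in 12-day wild type and 12.1 in 5-day wild type, with LSI2 listed at 0 in every group. In bulk aerial tissue, fewer cells of a type and less transcript per cell cannot be told apart.

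All 7 loci had lower deposited values in both knockout lines than in 12-day wild type, and 6 of the 7 had their highest value in 12-day wild type. Over the 18066 loci tested in both lines against 12-day wild type, 46.1% were lower by value in both lines and 23.4% were highest in 12-day wild type. Of the member loci 6 were tested in both lines, and all 6 were lower by value in both. Most of the members' differences were small. SPX1 and SQD2 passed the test in both lines, SPX2 in line b, and PHR2 and PHO2 in neither. SPX3, under 1 FPKM in every group, was not tested.

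**Figure D1:**
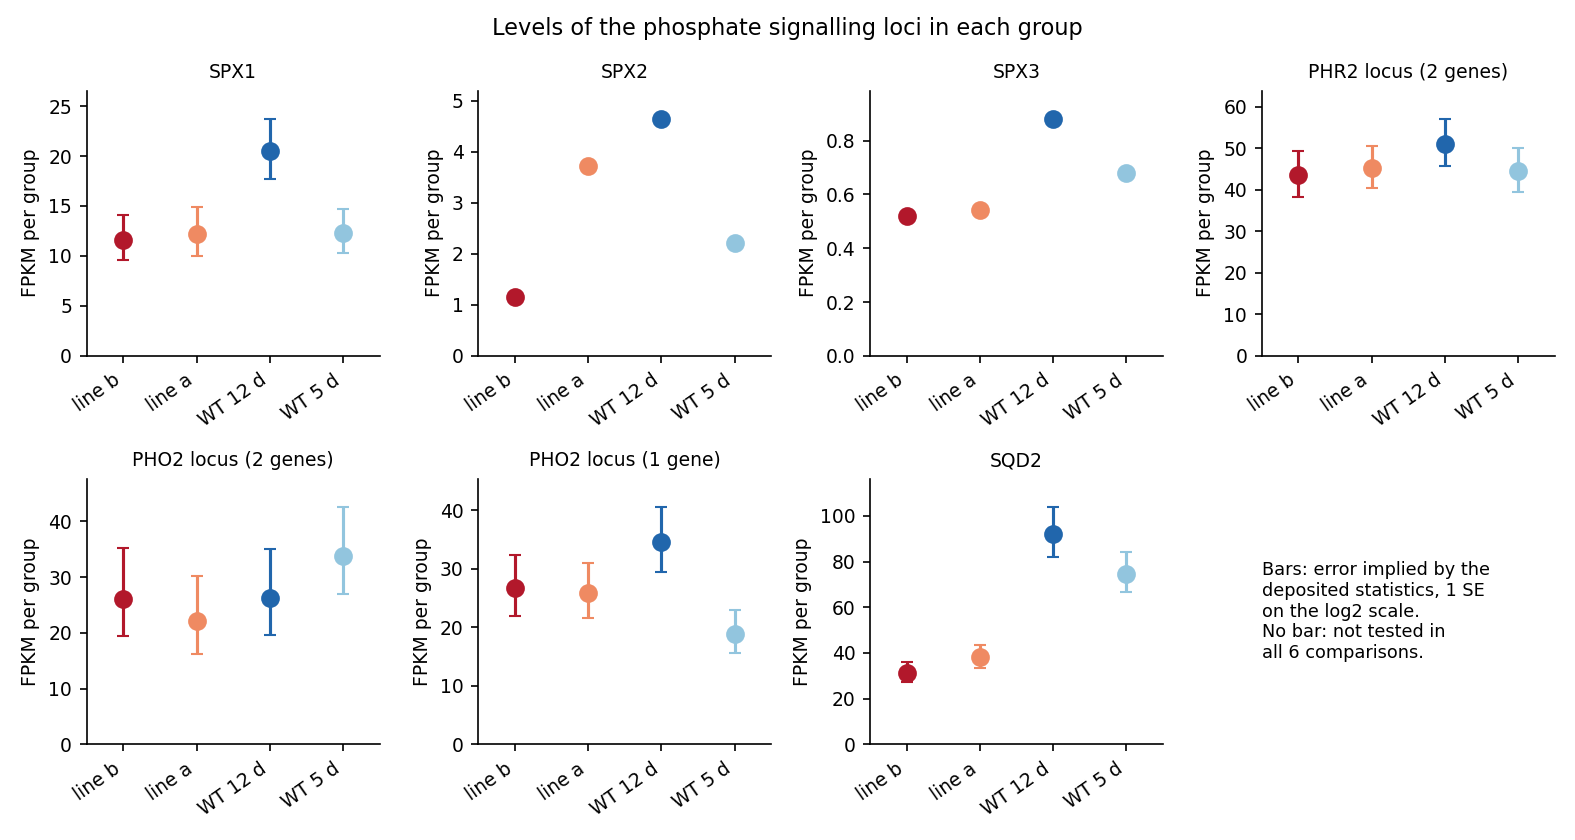
FPKM per group (y axis, from 0) of the 7 loci in line b, line a, 12-day and 5-day wild type, with 1 standard error on the log2 scale as implied by the deposited statistics for all but SPX2 and SPX3, which have none. SPX1 is highest in 12-day wild type, at 20.5 FPKM, and lies between 11.6 and 12.3 elsewhere, whereas SQD2 is lower in both lines than in both wild types.

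The SPX proteins are the sensors. SPX1 is encoded at IRGSP-1.0 chromosome 6, 23875437 to 23879965, and represses PHR2 in the nucleus. Its deposited level was 11.6 FPKM in line b, 12.2 in line a, 20.5 in 12-day wild type and 12.3 in 5-day wild type. Thus 1 group, 12-day wild type, was high, and the other groups lay together. Against 12-day wild type SPX1 fell 1.77-fold in line b (log2 -0.82, implied error 0.35, Cuffdiff q = 2.53e-04) and 1.67-fold in line a (log2 -0.74, implied error 0.36, Cuffdiff q = 0.00112). It rose 1.67-fold in 12-day over 5-day wild type (log2 0.74, implied error 0.33, Cuffdiff q = 0.00132). These comparisons share the 12-day wild-type libraries, so a high value there moves all of them.

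Against 5-day wild type SPX1 was not called in either line. The log2 ratio was -0.09 in line b with a 95% interval from -0.84 to 0.66, and -0.01 in line a with an interval from -0.77 to 0.76. Each interval, built from the implied error, still just holds a fall of the size seen in that line against 12-day wild type. The calls rest on the deposited p, which is smaller than this error would give, so intervals matched to it would be narrower. Of the loci tested against 12-day wild type, 16.5% had a lower ratio than SPX1 in line b and 17.8% in line a. A fall of this size was therefore common in the table. With the larger implied error taken as the error of the test, adjusted over all tests, SPX1 no longer passed in line b (q = 0.0864), in line a (q = 0.156) or in 12-day over 5-day wild type (q = 0.116).

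SPX2 (chromosome 2, 5706636 to 5709119), a close relative of SPX1 that also restrains PHR2, was low. It was listed at 1.15 FPKM in line b, 3.71 in line a, 4.64 in 12-day wild type and 2.21 in 5-day wild type. Line b was the lowest group, and line a was second only to 12-day wild type. SPX2 fell 4.02-fold in line b against 12-day wild type (log2 -2.01, implied error 1.02, Cuffdiff q = 0.00946), but did not pass with the implied error as the error of the test (q = 0.185). In line a the ratio was -0.32 with a 95% interval from -1.56 to 0.91 (Cuffdiff q = 0.503). The authors' table lists the comparison of line b with line a as not tested for SPX2, so a difference between the lines (log2 -1.68) has no test. SPX2 rose 2.10-fold in 12-day over 5-day wild type (log2 1.07, implied error 0.77, Cuffdiff q = 0.0384), and did not pass there either with the implied error (q = 0.434), whose interval ran from -0.44 to 2.57.

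SPX3 (chromosome 10, 13088845 to 13096752) was listed at 0.519 FPKM in line b, 0.544 in line a, 0.881 in 12-day wild type and 0.679 in 5-day wild type, and was tested in none of the 6 comparisons. Its level was below that of SPX1 and SPX2 in every group on this per-length scale. At least 12.6% of the loci above 0 in each group were listed at a lower level. The deposited SPX3 locus spans 7908 bases and the RefSeq gene of that name 2229 (assembly ASM3414082v1), so the locus is longer than the gene annotated there.

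**Figure D2:**
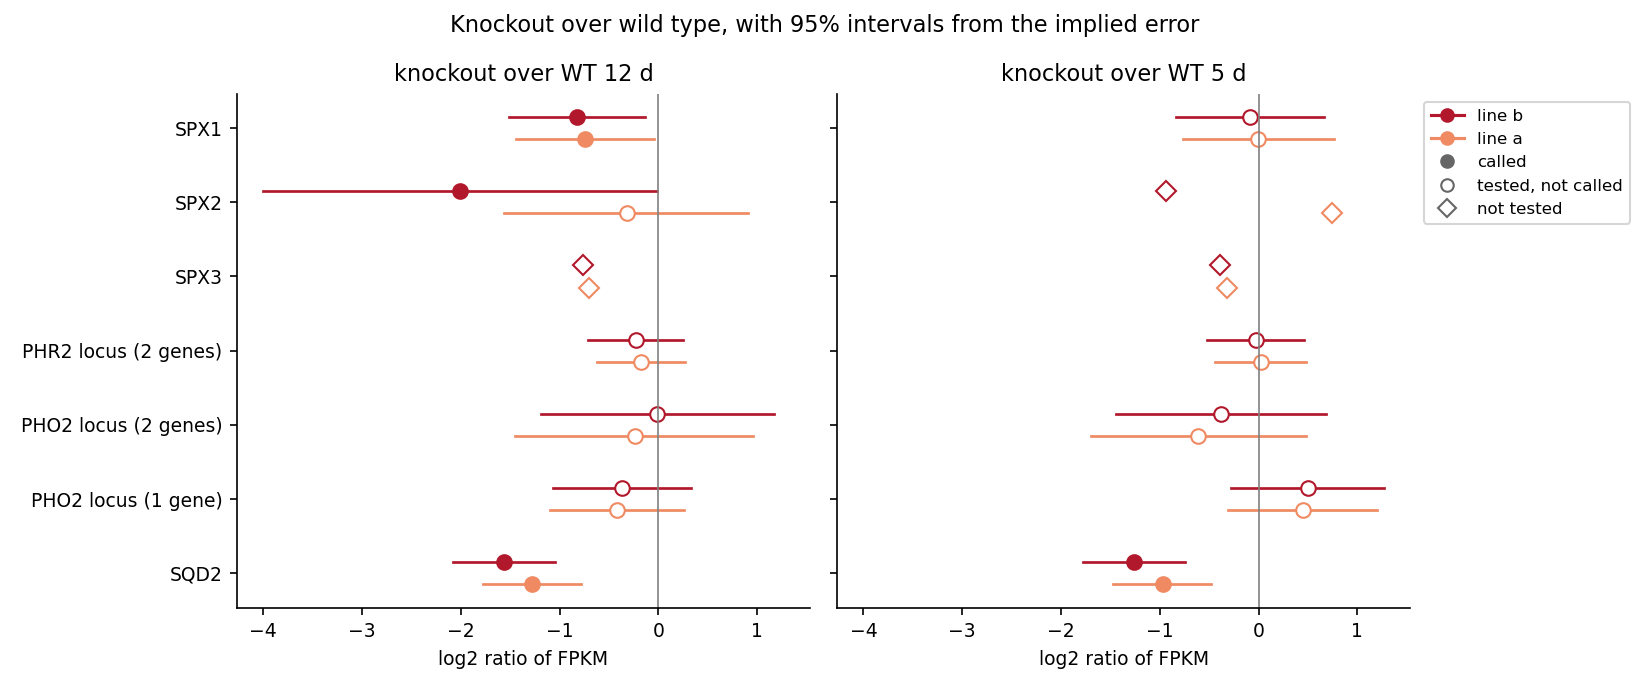
Log2 ratios of FPKM (x axis) of line b and line a over 12-day wild type (left) and over 5-day wild type (right) for the 7 loci, with 95% intervals from the implied error. Filled circles were called by the deposited q, open circles were tested and not called, and diamonds were not tested. SQD2 is the one member called in both lines against both wild types.

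PHR2 is the central activator of the pathway, a MYB-type transcription factor that is regulated mainly through its protein partners. Its locus (chromosome 7, 14741197 to 14759366) merges PHR2 with the neighbouring gene Os07g0438700 over 18170 bases, and the values are those of both genes together. The merged locus was listed at 43.5 FPKM in line b, 45.2 in line a, 51.1 in 12-day wild type and 44.5 in 5-day wild type. The highest value was 1.17 times the lowest, the narrowest range among the 7 loci. Against 12-day wild type the log2 ratio was -0.23 in line b (95% interval -0.71 to 0.25, Cuffdiff q = 0.195) and -0.18 in line a (95% interval -0.62 to 0.27, Cuffdiff q = 0.307). Against 5-day wild type it was -0.03 in line b and 0.02 in line a. No comparison called the locus, and the intervals against 12-day wild type hold log2 changes down to -0.71 in line b and -0.62 in line a.

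PHO2 acts downstream, on the stability of transporters. The deposited table lists its identifier in a pair of loci with the same coordinates (chromosome 5, 27712336 to 27766656), which they share with 7 others, 9 loci in all over 54321 bases. The locus that holds PHO2 alone was listed at 26.7 FPKM in line b, 25.8 in line a, 34.5 in 12-day wild type and 18.9 in 5-day wild type. Both lines thus lay between the wild types. PHO2 rose 1.83-fold in 12-day over 5-day wild type (log2 0.87, implied error 0.36, Cuffdiff q = 2.53e-04), which did not pass with the implied error as the error of the test (q = 0.0816).

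Neither line differed from 12-day wild type at the threshold used for PHO2. The log2 ratio was -0.37 in line b (95% interval -1.07 to 0.33, Cuffdiff q = 0.149) and -0.42 in line a (95% interval -1.10 to 0.26, Cuffdiff q = 0.0828). The authors marked tests with a q under 0.1 as significant, and their mark includes PHO2 in line a over 12-day wild type. It also includes PHO2 in line b over wild type at 5 days (log2 0.50, Cuffdiff q = 0.0721). The other PHO2 locus, merged with Os05g0558000, went a different way between the wild types and was called in no comparison. It stood at 26.1 FPKM in line b, 22.1 in line a, 26.2 in 12-day wild type and 33.8 in 5-day wild type, and its log2 ratio was -0.37 in 12-day over 5-day wild type. The pair of loci holding PHO2 thus disagreed between the wild types, and how the authors' assembly divided reads between these loci was not tested.

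SQD2 (chromosome 7, 17460 to 21402), the lipid enzyme, showed the clearest difference among the members. It was listed at 31.2 FPKM in line b, 38.1 in line a, 92.2 in 12-day wild type and 74.8 in 5-day wild type. Both lines lay well below both wild types. Against 12-day wild type SQD2 fell 2.95-fold in line b (log2 -1.56, implied error 0.26, Cuffdiff q = 2.53e-04) and 2.42-fold in line a (log2 -1.28, implied error 0.25, Cuffdiff q = 2.53e-04).

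Against 5-day wild type SQD2 fell 2.39-fold in line b (log2 -1.26, implied error 0.26, Cuffdiff q = 2.53e-04) and 1.97-fold in line a (log2 -0.97, implied error 0.25, Cuffdiff q = 2.53e-04). It remained called with the implied error as the error of the test, at a q of 7.27e-08 in line b and 6.97e-06 in line a against 12-day wild type. The ordering was 12-day wild type, 5-day wild type, line a and line b, and neither the wild types (log2 0.30, Cuffdiff q = 0.0740) nor the lines (log2 -0.28, Cuffdiff q = 0.147) passed against each other. The 4 leaf markers fell with SQD2 in both lines, RBCS to 1452 FPKM in line b and 1507 in line a, against 23720 in 12-day wild type. The part of leaf makeup in the SQD2 result was not tested.

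Counted by locus, 0 member loci were higher and 3 lower in line b against 12-day wild type, of 6 tested. Over all tested loci, 22.2% were called higher and 24.2% lower in that comparison. In line a 0 were higher and 2 lower of 6 tested, beside 21.3% called higher and 23.5% lower. The median log2 ratio of the tested members was -0.60 in line b and -0.37 in line a, against 0.00 for all tested loci in each line. With so many loci called, a count of 2 or 3 lower loci among 6 is not far from the background, and no test of the set was made.

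Against 5-day wild type 1 of 5 tested member loci was called, SQD2, which was lower in each line. The background was 25.6% higher and 26.6% lower in line b, and 24.7% higher and 26.2% lower in line a. In 12-day over 5-day wild type 3 of 6 tested loci rose, SPX1, SPX2 and the locus of PHO2 alone, and 0 fell, beside 14.8% of all tested loci called higher and 13.5% lower. Their median log2 ratio was 0.52, against -0.01 for all tested loci.

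Line b over line a gave 0 calls by Cuffdiff among the 5 tested member loci, and 0 had an unadjusted p under 0.05. Of all tested loci, 2.47% were called higher and 2.52% lower in that comparison. The widest interval among these 5 was that of the merged PHO2 locus, from -0.99 to 1.46, and the difference in SQD2 had an interval from -0.82 to 0.25.

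**Figure D3:**
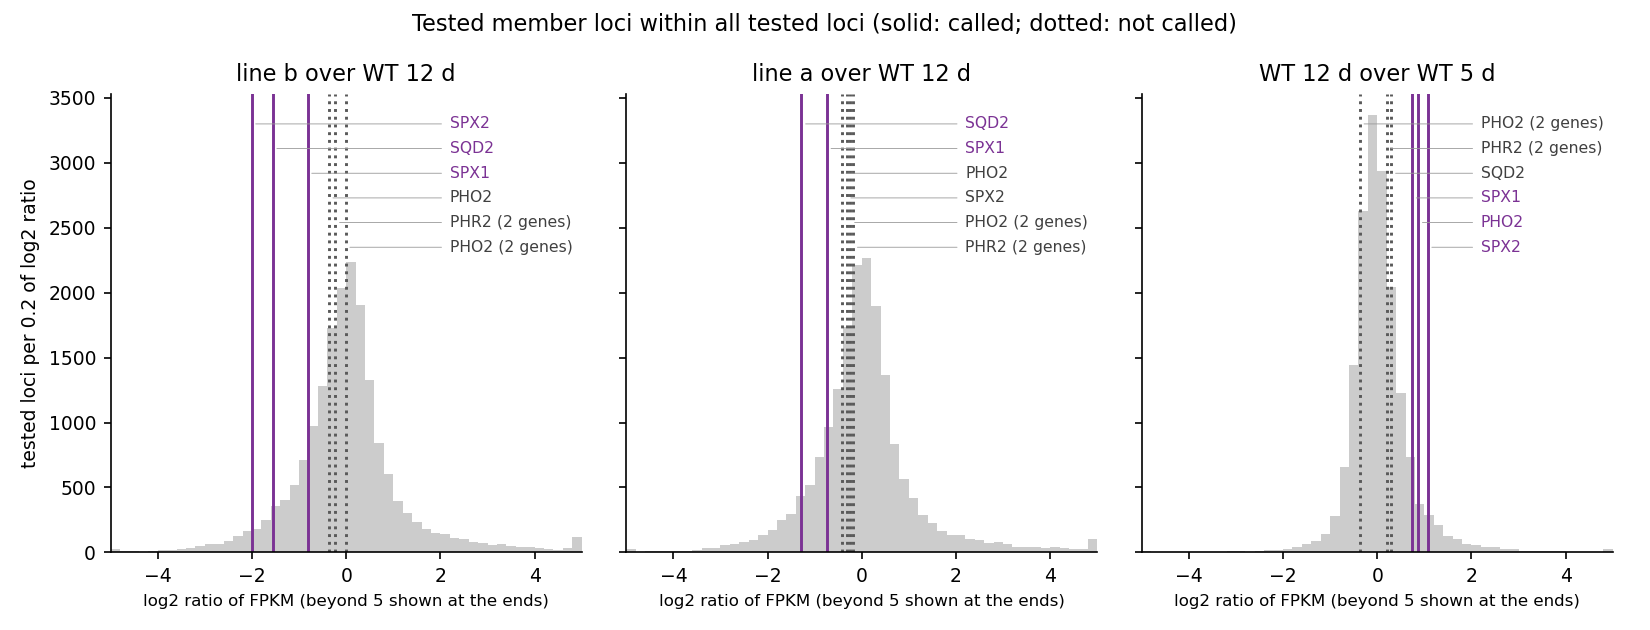
Number of tested loci (y axis) by log2 ratio of FPKM (x axis) for line b over 12-day wild type, line a over 12-day wild type, and 12-day over 5-day wild type. Lines mark the tested member loci, solid where called and dotted where not. The members called in the lines lie on the low side. Those called in 12-day over 5-day wild type lie on the high side. All are inside the spread of all loci.

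Other genes of phosphate handling were taken from a list of 36, of which 21 carried their symbol at the same place in the RefSeq table and were kept. Against 12-day wild type 8 of the 21 were tested in each line, and 4 were higher and 3 lower in line b, as in line a. Over all tested loci the shares were 22.2% higher and 24.2% lower in line b, and 21.3% higher and 23.5% lower in line a. The 13 untested genes had at most 3.00 FPKM in any group. The median log2 ratio of the 8 was 0.34 in line b and 0.24 in line a. PHR1, PHR3, PT1 and PT8 were higher in both lines, SPX6, PHO1;2 and PT4 were lower, and SPX4 was not called.

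Among the tested list genes the largest rises over 12-day wild type were those of PT8 and PHR3. PT8 (Os10g0444700), a high-affinity proton-coupled phosphate transporter of the PHT1 family, was listed at 115 FPKM in line b, 103 in line a, 12.4 in 12-day wild type and 9.27 in 5-day wild type. Both lines stood far above both wild types. The deposited PT8 locus spans 2827 bases and the RefSeq gene matched to it 2076. PT8 rose 9.27-fold in line b (log2 3.21, implied error 0.25, Cuffdiff q = 2.53e-04) and 8.37-fold in line a (log2 3.07, implied error 0.25, Cuffdiff q = 2.53e-04) against 12-day wild type. PT1 (Os03g0150600), another PHT1 transporter, was listed at 49.1 FPKM in line b, 54.4 in line a, 16.4 in 12-day wild type and 12.9 in 5-day wild type, with deposited log2 ratios over 12-day wild type of 1.58 in line b and 1.73 in line a. PHT1 genes are similar in sequence and lie partly in tandem, so reads may have been divided unevenly among them, which was not tested.

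PHR3 (Os02g0139000), a relative of PHR2 with overlapping targets, was listed at 20.3 FPKM in line b, 20.8 in line a, 2.21 in 12-day wild type and 0.984 in 5-day wild type. The deposited PHR3 locus spans 6136 bases and the RefSeq gene matched to it 3706, so the locus is longer than that gene. PHR3 was then compared with 12-day wild type. The PHR3 locus rose 9.16-fold in line b (log2 3.20, implied error 0.61, Cuffdiff q = 2.53e-04) and 9.41-fold in line a (log2 3.23, implied error 0.61, Cuffdiff q = 2.53e-04) against 12-day wild type. PHR1 (Os03g0329900), of the same family, rose less, with deposited log2 ratios of 0.39 in line b (Cuffdiff q = 0.0151) and 0.36 in line a (Cuffdiff q = 0.0238). PHR1 did not pass with the implied error as the error of the test (q = 0.335 in line b, 0.380 in line a).

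Among the genes that fell, SPX6 (Os07g0614700), a further SPX protein, was listed at 2.54 FPKM in line b, 2.40 in line a, 6.73 in 12-day wild type and 3.40 in 5-day wild type. Its deposited log2 ratios against 12-day wild type were -1.40 in line b (Cuffdiff q = 0.0150) and -1.49 in line a (Cuffdiff q = 0.0141). PHO1;2 (Os02g0809800), which loads phosphate into the xylem, was listed at 3.73 FPKM in line b, 3.52 in line a, 5.97 in 12-day wild type and 3.89 in 5-day wild type, with deposited ratios of -0.68 in line b and -0.76 in line a. SPX6 and PHO1;2 thus showed the same single high group as SPX1, and neither passed with the implied error as the error of the test (q from 0.216 to 0.295).

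PT4 (Os04g0186400), a PHT1 transporter, differed most between the wild types among the tested list genes. It was listed at 1.99 FPKM in line b, 0.634 in line a, 9.19 in 12-day wild type and 0.428 in 5-day wild type. It fell 4.61-fold in line b (log2 -2.20, implied error 0.62) and 14.5-fold in line a (log2 -3.86, implied error 1.28) against 12-day wild type. PT4 rose 21.5-fold in 12-day over 5-day wild type (log2 4.42, implied error 1.73, Cuffdiff q = 2.53e-04). Its values in line a and in 5-day wild type were under 1 FPKM, and line b over line a was not tested for PT4. With the implied error as the error of the test PT4 passed in both lines but not between the wild types (q = 0.0554). SPX4 (Os03g0827500), an SPX protein that keeps PHR2 in the cytoplasm, was listed at 21.3 FPKM in line b, 18.7 in line a, 17.3 in 12-day wild type and 18.3 in 5-day wild type, with deposited log2 ratios over 12-day wild type of 0.30 in line b (Cuffdiff q = 0.175) and 0.11 in line a (Cuffdiff q = 0.670).

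In 12-day over 5-day wild type 3 of the 7 tested list genes rose, SPX6, PHO1;2 and PT4, and 0 fell, beside 14.8% of all tested loci called higher and 13.5% lower. Against 5-day wild type 4 of 5 tested rose in each line, PHR1, PHR3, PT1 and PT8, and 0 fell. Of these, PHR1 did not pass with the implied error as the error of the test (q = 0.140 in line b, 0.166 in line a). The shares over all tested loci were there 25.6% higher and 26.6% lower in line b, and 24.7% higher and 26.2% lower in line a. Line b over line a gave 0 Cuffdiff calls among 5 tested list genes, and 0 had an unadjusted p under 0.05. LSI1, a silicon channel of roots, was the one root marker tested, at 6.99 FPKM in line b, 6.56 in line a, 2.31 in 12-day wild type and 10.7 in 5-day wild type. RCc3, which was not tested, was listed at 2.48 FPKM in line b, 0.703 in line a, 2.37 in 12-day wild type and 1.37 in 5-day wild type. By value RCc3 was thus lower in line a than in 12-day wild type, unlike LSI1. Each line was called higher in LSI1 than wild type at 12 days, as for PT1 and PT8. For LSI1 each line was called lower than wild type at 5 days, where those transporters were higher. The part of root-type transcript in these results was not tested.

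**Figure D4:**
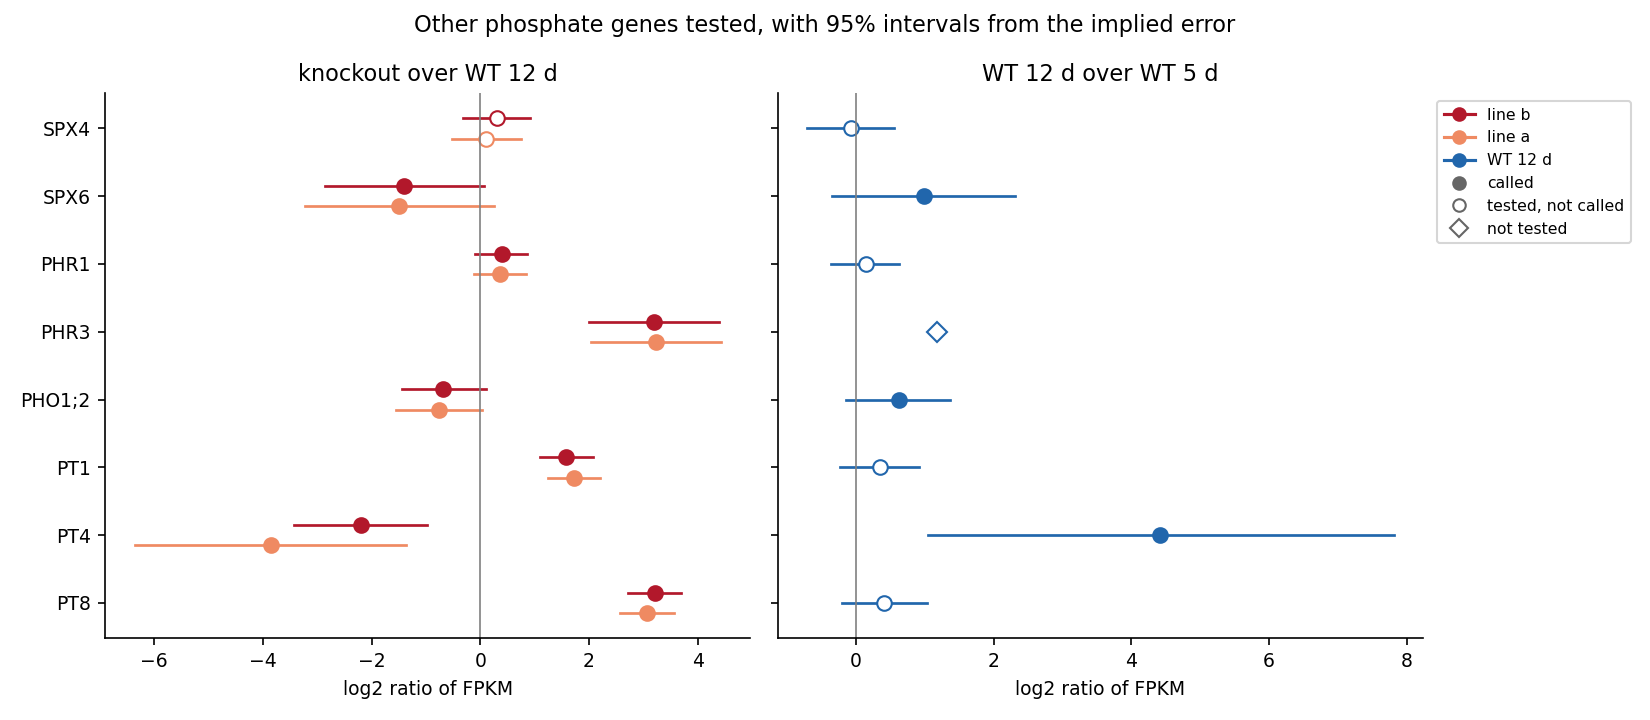
Log2 ratios of FPKM (x axis) of the 8 list genes tested in the knockout lines over 12-day wild type (left), and the same genes in 12-day over 5-day wild type (right), with 95% intervals from the implied error. PHR3, PT1 and PT8 lie above 0 in both lines, PT4 lies below 0, and PHR3 was not tested between the wild types.

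Likeness of profile was measured as the Euclidean distance between log2 FPKM over the 4 groups, centred for each locus, among the members and list genes at 1 FPKM or more in every group. The named gene nearest to SPX1 was PHO1;2, at a distance of 0.144, followed by the locus of PHO2 alone at 0.472 and the PHR2 locus at 0.491. Of 18101 other loci with 1 annotated gene, 33 (0.182%) were at least as near to SPX1 as PHO1;2 was. The nearest to SQD2 was SPX6 at 0.632, and 9.02% of loci were at least as near. The nearest to SPX2 was SPX1 at 1.18, with 3.09% of loci at least as near. The nearest to the PHR2 locus was SPX4 at 0.375, with 22.8% of loci at least as near. These distances rest on 4 group values each and describe the profiles without a test.

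**Figure D5:**
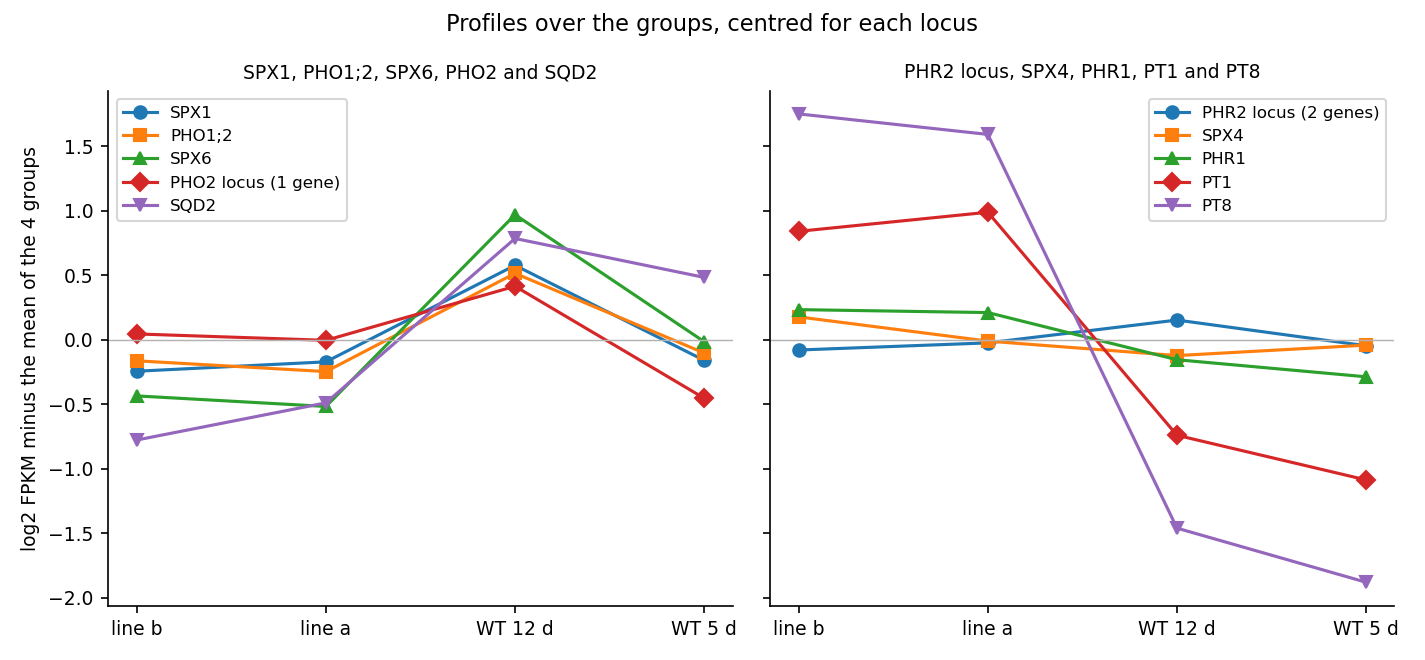
Log2 FPKM of each locus minus its mean over the 4 groups (y axis) in line b, line a, 12-day and 5-day wild type (x axis). SPX1, PHO1;2, SPX6, SQD2 and the locus of PHO2 alone peak in 12-day wild type (left), whereas PT1, PT8 and PHR1 are higher in both lines than in both wild types and the PHR2 locus and SPX4 stay near 0 (right).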

How the data were processed

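Per the submitters' processing notes, Trimmomatic, FastQC, HISAT2, Cufflinks and Cuffdiff were used on build IRGSP-1.0, with versions, options and annotation release not given in the sources used here. The authors' deposited Cuffdiff table holds FPKM, 1 value per group over its 3 replicates, log2 ratios of these, a score (the test statistic, log2 ratio over its standard error), and p-value and q-value columns. The deposited q matched Benjamini-Hochberg adjustment over all 108602 tests of the 6 comparisons to within 5.27e-07. The normal deviate of the deposited p was a median 1.75 times the statistic, so the deposited p is smaller than the implied error would give. The smallest deposited p was 5.00e-05, with a q of 2.53e-04.

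Computed here, with Python 3.11.15, numpy 2.4.6, pandas 2.3.3 and scipy 1.17.1, were calls (deposited q under 0.05), implied errors, 95% intervals, group errors solved from the implied errors of the 6 comparisons, and profile distances. Deposited values per replicate, counts and depth were not analysed here. Locus starts were read as counted from 0 and moved up by 1.

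The members and lists were chosen with earlier results of these data known. A list gene was kept where the RefSeq table (assembly ASM3414082v1) had its symbol on the same chromosome at a relative position within 0.05 of the chromosome's length. Of 36, 14 were dropped for lack of this, and 1 because the symbol there names another gene. Symbols of 4 of the 6 members were found so. Those of PHO2 and SQD2 were not, and these members are named by their identifiers alone. All 6 members were named in the text, with list genes called in the same direction in both lines against 12-day wild type or at least 2-fold in 12-day over 5-day wild type, the nearest profiles, and the targeted gene. Profiles were compared among members and list genes because no other locus could be named.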

Additional observations from a re-analysis of the deposited data

How the results depend on the processing

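Each count of calls was recomputed at a q under 0.01, with at least a 2-fold ratio, with the implied error as the error of the test, with adjustment within each comparison, with 1 FPKM or more in both groups, and with loci of 1 annotated gene. The authors' own mark, which ends at a q of 0.1, was added after seeing the data. The cause of each shift below was not tested, except that stricter rules call fewer loci. With the implied error 1 member locus was called in line b, 1 in line a (each against 12-day wild type) and 0 in 12-day over 5-day wild type, and 4, 4 and 0 list genes. At a 2-fold minimum 1 member was called in line a against 12-day wild type, 0 in line a against 5-day wild type and 1 in 12-day over 5-day wild type, where 1 list gene was called. At a q under 0.01, 1 list gene was called in 12-day over 5-day wild type. By the authors' mark 2 members were called in line b against 5-day wild type and 5 list genes in 12-day over 5-day wild type. The other 71 recomputed counts stayed within 1.5 times. The members' log2 ratios moved by less than the implied error, where 1 exists, with 1 or 0.1 FPKM added or with the median ratio set to 0, and no called ratio changed sign. Leaving out each replicate was not run. No paired analysis was possible because the table holds 1 value per group. SPX2 and SPX3 had low levels and were untested in 3 and 6 of the 6 comparisons.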

Other observations

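Several list genes outside the rule for named genes had low values and were not tested by the authors. The genes given here were chosen after their values were seen. PHO1;3 (Os06g0493600), of the same exporter family as PHO1;2, was listed at 0.206 FPKM in line b, 0.135 in line a, 3.00 in 12-day wild type and 0.390 in 5-day wild type. PT5 (Os04g0185600), of the PHT1 family, was listed at 2.24 FPKM in line b, 2.05 in line a and 0.195 in 12-day wild type, and at 0 in 5-day wild type. PT11, a transporter known for mycorrhizal phosphate uptake, was listed at 0 in both lines, 0.0867 FPKM in 12-day wild type and 0.0907 in 5-day wild type. PT6 and PT10 were listed at 0 in every group.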
